A study of Mus musculus with 12 samples.

Results

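Bcor is an X-linked gene whose body and flanks, 20 kb on either side, held 15 of 1217 regions with an allelic ratio of transcription factor binding. Of these, 13 were among the 1006 OCT4 peaks and 2 among the 211 YY1 peaks on the X chromosome. A peak was counted as a member when it lay in or overlapped that window (mm10, chromosome X, 12016737 to 12180516). The locus was chosen from the day 6 against day 0 values themselves, because peaks a few kilobases apart had very different changes, so those values are given below as a description and support no claim about the locus.

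The cells were iXist-ChrX-Cast, a female hybrid mouse embryonic stem cell line with a castaneus X chromosome and one from a laboratory strain, in which doxycycline turns on Xist on the castaneus X. Xist, a long non-coding RNA, coats and silences the X chromosome that transcribes it. The castaneus X thus becomes the inactive one (Xi), and its partner is the active one (Xa). Both groups carried the same inducible Xist: day 0 cells had no doxycycline, and day 6 cells had been given 1 µg/ml doxycycline, in culture conditions for undifferentiated cells. Of the 12 libraries, all from chromatin immunoprecipitation or its input, there were 2 for each antibody and for input at either time, and the 8 immunoprecipitated ones have allelic ratios. All come from 1 cell line, and no source used here says whether replicates were separate cultures, so their spread may be technical.

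The measurement is the allelic ratio, the fraction Xi / (Xi + Xa) of allele-assigned fragments in a peak. A ratio of 0.5 means equal recovery from both chromosomes, and a lower one means relatively less from Xi. Because it is relative, a fall cannot be told apart from more binding on Xa, and the number of fragments behind each value is unknown here, so no counting interval can be given. The 6 embryonic stem cell marker genes examined (Pou5f1, Sox2, Nanog, Klf4, Esrrb and Zfp42) each had 4 or more OCT4 consensus peaks in the same kind of window, beside a median of 2 over all 21627 protein-coding genes of the autosomes and the X.

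BCOR, the BCL6 corepressor, is a scaffold of a variant Polycomb repressive complex, PRC1.1, in which PCGF1 and a RING1 or RNF2 ubiquitin ligase modify histone H2A and KDM2B tethers the complex to unmethylated CpG islands. OCT4 (gene Pou5f1) is the POU-domain pluripotency factor that reads the octamer element, often beside a SOX2 site. YY1 is a zinc-finger factor found mostly at CpG-rich promoters. As Xist silences a chromosome, transcription factors and the transcription machinery become scarcer on it than on its active partner.

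Bcor lies on the minus strand, from 12036737 to 12160516 (GeneID 71458). Its curated RefSeq mRNAs start at 2 places 79.8 kb apart: 1 transcript at 12160355, called the upstream start here, and 4 at 12080553, the downstream start. The first intron of the long form spans 98.6 kb and takes in the downstream start. It held 11 of the 13 OCT4 members and both YY1 members, and 9 of these OCT4 members and both YY1 members touched no exon of any annotated transcript. Members are named by the distance of their centre from the upstream start.

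The octamer was searched as ATGCAAAT or ATGCTAAT on either strand, the SOX element as CATTGT or CTTTGT, and the YY1 core as AANATGGC. The reference sequence (GRCm38.p6, strain C57BL/6J) is shown for the members that carried an octamer or a YY1 core, since these are the letters the factors are known to read, and differences of the parental strains from it are not shown. A match describes the letters and is no evidence of a bound site. First stand the central 200 bases of 2 neighbours in the first intron, 84.6 and 86.5 kb from the upstream start, whose changes were close to 0 and the deepest of the locus. Capitals mark, in order, the octamer, the YY1 core and the SOX element in the peak at 86.5 kb, while the peak at 84.6 kb held none of the 3 in these bases.

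OCT4 peak at 86.5 kb, chrX:12073738-12073937, plus strand: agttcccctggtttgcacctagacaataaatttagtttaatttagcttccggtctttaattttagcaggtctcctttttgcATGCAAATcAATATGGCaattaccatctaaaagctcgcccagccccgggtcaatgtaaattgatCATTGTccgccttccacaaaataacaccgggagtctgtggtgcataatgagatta
OCT4 peak at 84.6 kb, chrX:12075607-12075806, plus strand: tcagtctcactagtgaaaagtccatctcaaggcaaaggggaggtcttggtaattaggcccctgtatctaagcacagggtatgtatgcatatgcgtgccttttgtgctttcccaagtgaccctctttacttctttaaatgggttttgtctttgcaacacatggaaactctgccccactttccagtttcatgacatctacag

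The other 3 octamers, in capitals with 40 bases on either side, lay in OCT4 members at 36.4, 70.2 and 128 kb.

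OCT4 peak at 36.4 kb, chrX:12123722-12123809, minus strand: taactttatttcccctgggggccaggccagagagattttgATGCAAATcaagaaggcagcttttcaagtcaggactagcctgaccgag
OCT4 peak at 70.2 kb, chrX:12089973-12090060, minus strand: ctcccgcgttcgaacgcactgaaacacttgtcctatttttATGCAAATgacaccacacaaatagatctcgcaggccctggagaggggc
OCT4 peak at 128 kb, chrX:12032089-12032176, plus strand: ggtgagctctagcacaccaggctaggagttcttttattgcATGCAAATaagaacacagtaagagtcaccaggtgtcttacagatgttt

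The YY1 core is shown for both YY1 members, in capitals with 40 bases on either side. The one at 71.7 kb also lay inside the OCT4 member at 71.8 kb.

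YY1 peak at 71.7 kb, chrX:12088660-12088747, plus strand: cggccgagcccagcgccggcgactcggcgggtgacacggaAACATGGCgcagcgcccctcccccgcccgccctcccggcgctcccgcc
YY1 peak at 20.1 kb, chrX:12140242-12140329, minus strand: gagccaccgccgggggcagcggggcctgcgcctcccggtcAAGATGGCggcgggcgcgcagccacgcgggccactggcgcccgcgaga

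All 4 octamers of the members were spelled ATGCAAAT. An OCT4 consensus peak without an allelic ratio, 1.56 kb from the upstream start, also held an octamer. The octamer of the member at 86.5 kb lay 15 bases from the peak centre and that of the member at 128 kb lay 86 bases from it, against 167 bases at 70.2 kb and 214 bases at 36.4 kb. Among the 1006 OCT4 peaks, 20.2% held an octamer, against 4 of the 13 members. A SOX element was present in 8 of 13 members and 67.7% of all peaks, and a YY1 core in 2 of 13 members and 10.4% of all peaks. Both YY1 members held the YY1 core, which 76.8% of the 211 YY1 peaks did. In the member at 86.5 kb the octamer and a YY1 core were separated by 1 base, but no YY1 peak with an allelic ratio overlapped it.

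Before Xist induction both X chromosomes gave OCT4 signal at every member, as the study kept in its tables peaks that were biallelic at day 0. The mean day 0 ratio of the 13 OCT4 members ran from 0.390 to 0.655 with a median of 0.500, beside 0.497 over all OCT4 peaks. At day 6 the means ran from 0.212 to 0.592 with a median of 0.419, beside 0.339 over all. The median change (day 6 minus day 0) was -0.115 at Bcor and -0.149 over the 1006 peaks. On average 10 of 13 members were lower at day 6, against 92.8% of all OCT4 peaks. The members kept a median of 76.5% of their day 0 ratio, with a range from 35.3% to 119%, beside a median of 68.6% over all peaks.

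**Figure D1:**
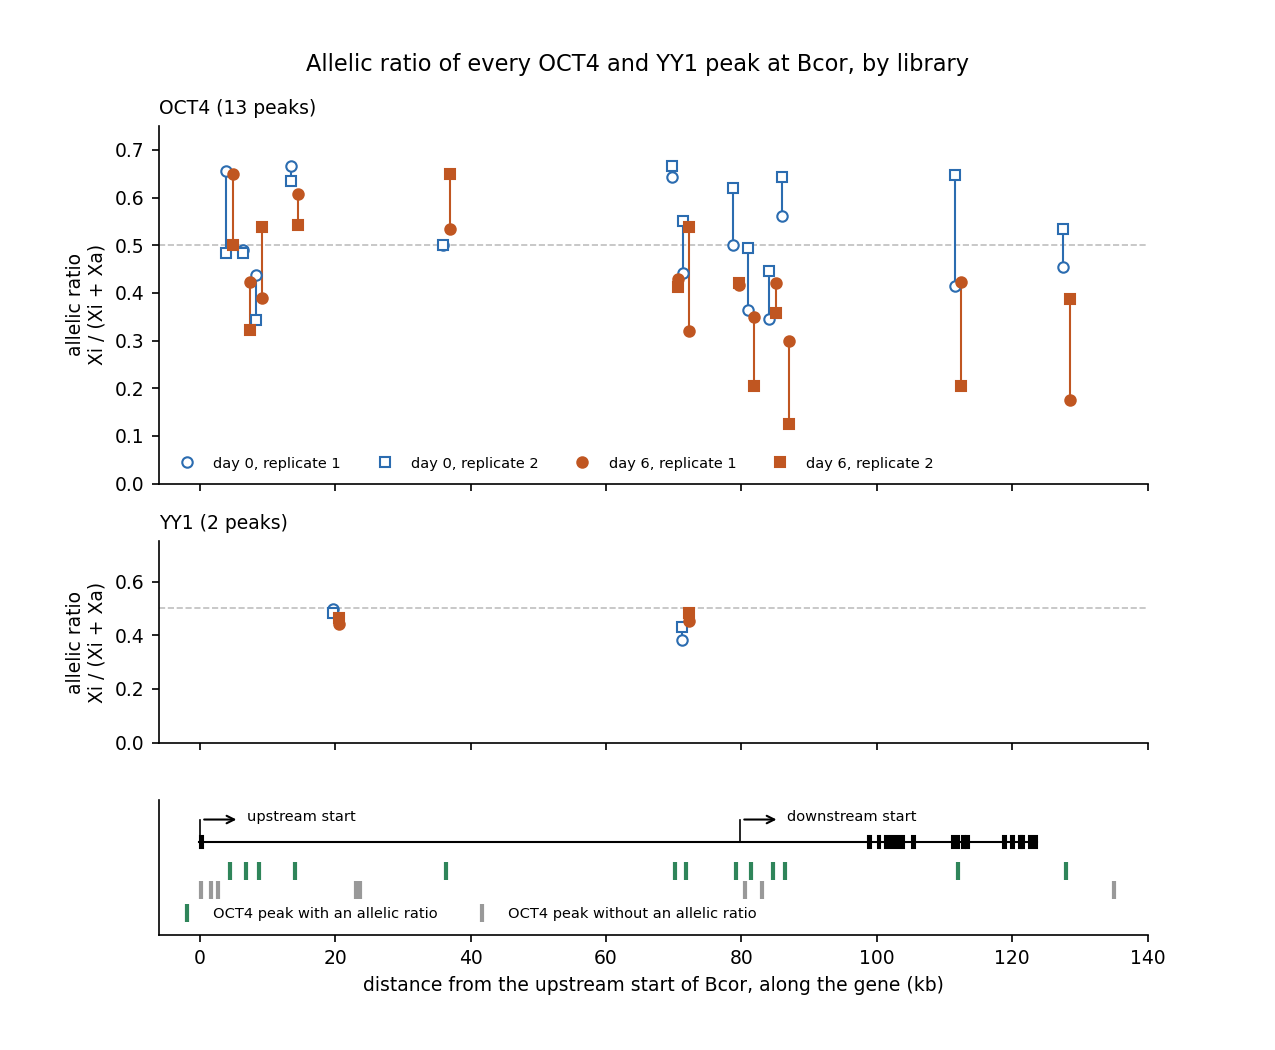
Allelic ratio Xi / (Xi + Xa) of each OCT4 and YY1 member in each library (y axis), against distance from the upstream start of Bcor in kb (x axis), with open blue symbols for day 0, filled orange symbols for day 6, circles for replicate 1, squares for replicate 2 and a line joining the 2 libraries of a day. The lowest track shows the exons of the long curated form (short ones widened), both curated starts and the OCT4 consensus peaks with and without an allelic ratio. The lowest mean day 6 ratio, 0.212, belongs to the peak at 86.5 kb, and the highest mean day 6 ratio, 0.592, to the peak at 36.4 kb.

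The deepest fall was in the first intron, downstream of both curated starts. The OCT4 member at 86.5 kb (12073611 to 12074063) had day 0 ratios of 0.562 and 0.643 and day 6 ratios of 0.3 and 0.125. Both day 6 values were below both day 0 values, and the peak kept 35.3% of its ratio. The change was -0.390 ± 0.0732 (SE, n = 2 per day), the 14th deepest of 1006.

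The next deepest member, at 70.2 kb (12089590 to 12090776), lay in the first intron ahead of the downstream start, 1710 bases from the start of the non-coding gene Gm46687, which runs the other way inside that intron. Its ratios were 0.643 and 0.667 at day 0 and 0.429 and 0.412 at day 6, so the days did not overlap and the libraries of each day were close together. The change was -0.235 ± 0.0534 (SE, n = 2 per day). It started from the highest mean day 0 ratio of the locus, 0.655, and reached 0.420, near the median of the members.

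The member at 112 kb (12047771 to 12048481) overlapped a coding exon present in all the curated mRNAs. Its day 0 ratios were 0.414 and 0.647 and its day 6 ratios 0.423 and 0.205. Its mean fell by 0.216 ± 0.0992 (SE, n = 2 per day), but 1 day 6 library was above 1 day 0 library and the days overlapped. The spread within each day was as large as the change.

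The member at 128 kb (12032018 to 12032419) lay past the end of the gene, 4.32 kb downstream of it. Its ratios were 0.455 and 0.534 at day 0 and 0.175 and 0.387 at day 6, with no overlap between days. The change was -0.214 ± 0.0795 (SE, n = 2 per day). It was the outermost member. The nearest peaks outside the window were 21.4 kb downstream of the gene (0.492 and 0.484 at day 0, 0.412 and 0.432 at day 6) and 64.3 kb upstream of it (0.533 and 0.647 at day 0, 0.273 and 0.182 at day 6).

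At the other end of the range, the member at 36.4 kb (12123674 to 12124285), in the middle of the first intron, had a ratio of 0.500 in both day 0 libraries and of 0.533 and 0.650 at day 6. Both day 6 values were above both day 0 values. The change was 0.0917 ± 0.0611 (SE, n = 2 per day), and 98.8% of the OCT4 peaks on X had a lower change. This was the retained member with an octamer.

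The member at 8.73 kb (12151199 to 12152047) had day 0 ratios of 0.438 and 0.343 and day 6 ratios of 0.389 and 0.538. The days overlapped, and the change of 0.0735 ± 0.0704 (SE, n = 2 per day) was about the size of its error. The member at 4.39 kb (12155705 to 12156218), the nearest to the upstream start with an allelic ratio, had 0.656 and 0.484 at day 0 and 0.650 and 0.500 at day 6. Its mean ratio was 0.570 at day 0 and 0.575 at day 6, while the libraries of each day differed by far more than that.

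The downstream start, at which 4 of the 5 curated mRNAs begin, had OCT4 peaks on both sides. The member at 79.2 kb (12080891 to 12081434) lay within 500 bp upstream of it and covered the start of predicted transcripts. Its ratios were 0.500 and 0.619 at day 0 and 0.417 and 0.421 at day 6, without overlap, and the change was -0.141 ± 0.0614 (SE, n = 2 per day). The member at 81.4 kb (12078580 to 12079339), which covered the first exon of another predicted transcript, had 0.365 and 0.494 at day 0 and 0.349 and 0.204 at day 6. Its day 6 values were also below both day 0 values, with a change of -0.153 ± 0.0733 (SE, n = 2 per day), and it kept 64.4% of its ratio. Both changes were close to the X-wide median.

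The upstream start itself could not be read. An OCT4 consensus peak of 345 bases, with a GC content of 71.0%, was centred 0.216 kb from it (12159967 to 12160311), but it had no allelic ratio. The same held for the next 2 peaks into the intron, 1.56 and 2.69 kb from the start. The first ratio along the gene is therefore that at 4.39 kb.

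The remaining 4 OCT4 members were intronic. At 6.85 kb the ratios were 0.491 and 0.483 at day 0 and 0.422 and 0.322 at day 6. At 14.0 kb they were 0.667 and 0.634 at day 0 and 0.607 and 0.542 at day 6. Both peaks were lower in both day 6 libraries, and they kept 76.5% and 88.3% of their ratio. At 71.8 kb the ratios were 0.441 and 0.550 at day 0 and 0.320 and 0.538 at day 6. The peak at 84.6 kb went from 0.346 and 0.447 to 0.421 and 0.357. In these last peaks the days overlapped, with changes of -0.0664 ± 0.0831 and -0.00766 ± 0.0615 (SE, n = 2 per day).

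**Figure D2:**
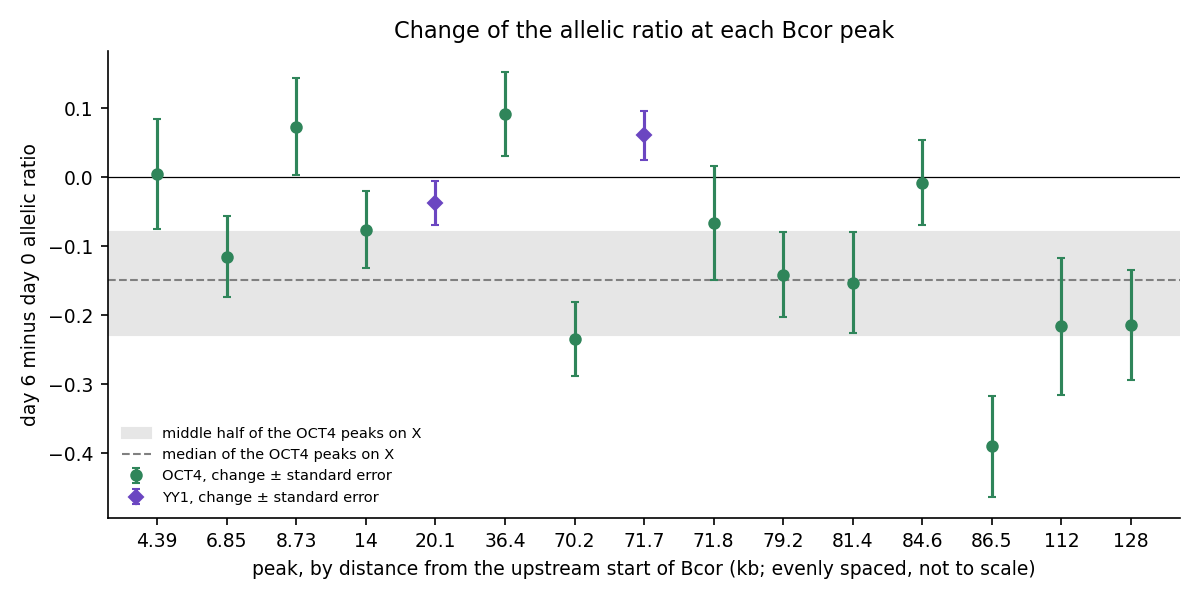
Change of the allelic ratio (day 6 minus day 0, y axis) at the 13 OCT4 and 2 YY1 members in order along the gene (x axis, labelled in kb from the upstream start and not to scale). Bars are the limma standard error, the dashed line is the median of the 1006 OCT4 peaks, -0.149, and the grey band runs between their quartiles, -0.229 and -0.0794. The peak at 86.5 kb is the lowest, at -0.390, and 3 OCT4 members and 1 YY1 member lie above 0.

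The deepest loss of the locus stood beside a peak that kept 98.1% of its ratio. These peaks, at 84.6 and 86.5 kb, were 1448 bases apart and had changes of -0.00766 and -0.390. Smaller differences stood between other neighbours. The peaks at 70.2 and 71.8 kb were 665 bases apart and had changes of -0.235 and -0.0664. The peaks at 6.85 and 8.73 kb were 839 bases apart, with changes of -0.115, a smaller fall than the X-wide median, and 0.0735. These pairs were picked for their differences, which were not tested. By contrast, the neighbours at 79.2 and 81.4 kb, on either side of the downstream start, had changes that differed by 0.0125.

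Within the window the changes became lower with distance from the upstream start (Spearman's rho -0.615 over 13 peaks that share the same 4 libraries, a description). The nearest OCT4 peaks outside the window did not follow this order. Their changes were -0.363 at 64.3 kb upstream of the gene and -0.066 at 21.4 kb downstream of it. The 4 members within 20 kb of the upstream start had changes from -0.115 to 0.0735 with a median of -0.0355. The 3 members from there to 5 kb before the downstream start ran from -0.235 to 0.0917 with a median of -0.0664. The 6 members around and past the downstream start ran from -0.390 to -0.00766 with a median of -0.183, and 6 of 6 were lower on average at day 6. These sections were set after the values were seen. Members that started from a higher day 0 ratio tended to have a lower change (rho -0.418 over the same 13 peaks), as did the 1006 OCT4 peaks as a whole (rho -0.319), and both quantities contain the day 0 ratio.

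The 4 members with an octamer had changes of -0.390, -0.235, -0.214 and 0.0917. They thus held the lowest and the highest change of the locus. The 9 members without one ran from -0.216 to 0.0735. Over the whole X, peaks with an octamer had a median change of -0.153 (203 peaks) and those without one of -0.149 (803 peaks).

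Both day 6 values were below both day 0 values at 7 of 13 members, beside 73.0% of all OCT4 peaks. Both were above at 1 of 13, beside 1.39% over all. The limma fit (two-sided, Benjamini-Hochberg adjusted p under 0.05 over the 1006 peaks) called 2 of 13 members lower, beside 35.0% of all OCT4 peaks. Those were the members at 86.5 and 70.2 kb. An unadjusted p under 0.05 was reached by 3 of 13, beside 506 of all 1006 peaks. Nothing is read from these counts, since the locus was chosen on this contrast. Leaving out either day 0 library left 0 members called (and 1 or 0 of all 1006 peaks). Without day 6 replicate 1 the changes at 86.5 and 70.2 kb were -0.478 and -0.243. Without day 6 replicate 2 they were -0.303 and -0.226.

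The libraries of 1 day differed more at Bcor than at a typical peak. The median gap between the 2 libraries was 0.0946 at day 0 and 0.145 at day 6 over the members, beside 0.0585 and 0.0677 over all OCT4 peaks. The part of this spread in the changes above was not tested, and the fragments behind each ratio are not known here.

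**Figure D3:**
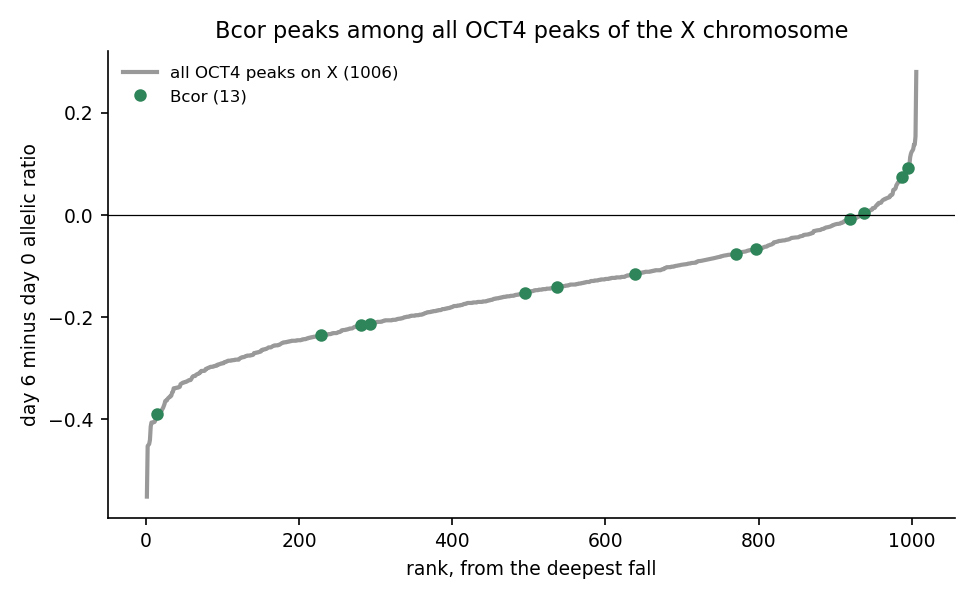
The day 6 minus day 0 change (y axis) of the 1006 OCT4 peaks on X in order from the deepest fall (x axis, rank), as a grey line, with the 13 Bcor members as green points. Bcor members run from rank 14 to rank 995.

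YY1 was measured at 2 peaks, both in the first intron, and neither showed a fall of the size seen at most YY1 peaks on X. The peak at 20.1 kb (12140047 to 12140528) had day 0 ratios of 0.498 and 0.484 and day 6 ratios of 0.442 and 0.466. Both day 6 values were below both day 0 values, but the change was only -0.0368 ± 0.0319 (SE, n = 2 per day). The peak at 71.7 kb (12088535 to 12088836) had 0.382 and 0.431 at day 0 and 0.452 and 0.484 at day 6, so that both day 6 values were above both day 0 values. Its change was 0.0609 ± 0.0354 (SE, n = 2 per day).

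The median change over the 211 YY1 peaks was -0.0987. Over all of them, both day 6 values were below both day 0 values in 72.0% and above in 4.27%, and the limma fit called 42.2% lower. At Bcor the same fit called 0 of 2, with 0 of 2 at an unadjusted p under 0.05, beside 118 of all 211 YY1 peaks. The nearest YY1 peaks with an allelic ratio outside the window were 1820 kb downstream of the gene and 698 kb upstream of it. The YY1 peak at 71.7 kb lay wholly within the OCT4 member at 71.8 kb, where the OCT4 ratio had a change of -0.0664 ± 0.0831 and the YY1 ratio one of 0.0609 ± 0.0354 (SE, n = 2 per day each). OCT4 and YY1 ratios come from separate tables, although the study's methods describe immunoprecipitating both factors out of shared chromatin extracts. The difference between the factors at this site was not tested. Across the X, 68 of 1006 OCT4 peaks overlapped a YY1 peak with an allelic ratio.

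The OCT4 consensus list, which pools the libraries and covers the whole genome, had 21 peaks in the Bcor window, 19 of them in the gene body. Allelic ratios were given for 13 of the 21 (61.9%), beside 47.0% of the 2139 consensus peaks on X. The 8 without a ratio had a median length of 323 bases, against 612 bases for those with one. Of the 843 input peaks counted over the whole genome, 0 lay in the 163.8 kb window. So short a stretch would rarely hold one, so this count says little about background. The members had a median GC content of 52.0%, beside 45.2% over all OCT4 peaks with a ratio, and the member at 70.2 kb held 82 CpG dinucleotides while that at 14.0 kb held 1.

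Only Dmd, with 25 in a far longer window, had more OCT4 consensus peaks than Bcor among the 966 X-linked protein-coding genes, whose median was 1. Per 100 kb of window the count at Bcor was 12.8, beside a median of 1.75 over those genes, and 14 genes were denser. Over all 21627 protein-coding genes of the autosomes and the X, the median was 2 peaks, or 3.09 per 100 kb. Of these genes, 52 had more peaks than Bcor and 948 were denser per 100 kb.

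Among partners and relatives of BCOR, OCT4 peak numbers differed widely. Kdm2b, the CpG-binding subunit of PRC1.1, had 16 peaks, and Usp7, a deubiquitinase that joins the complex, had 12. Rnf2 and Ring1, the ubiquitin ligases, had 5 and 4, Rybp and Yaf2, which are alternative subunits, had 5 and 2, and Skp1 and Pcgf1, which are shared and complex-defining subunits, had 3 and 2. Bcl6, the repressor that BCOR was named for, had 2. Bcorl1, the X-linked paralogue of Bcor, had 0 consensus peaks, so that it has no allelic ratio to set beside Bcor. The windows differ in length, and per 100 kb the counts ran from 0 at Bcorl1 and 2.15 at Yaf2 to 10.1 at Kdm2b and 11.1 at Usp7, beside the median of 3.09 over all genes. The other 9 of these 10 genes are autosomal, where the tables used here give no ratios.

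**Figure D4:**
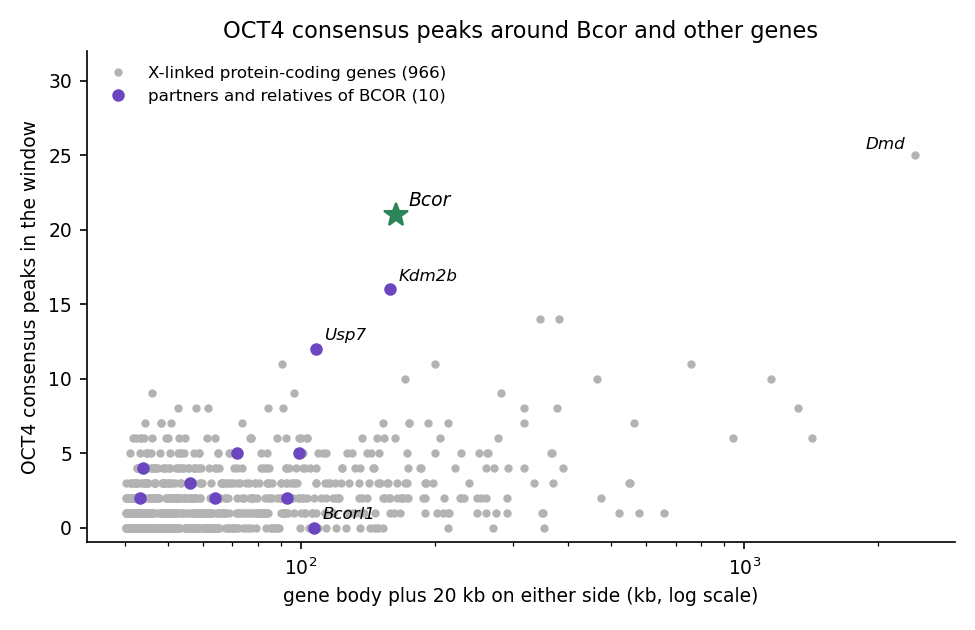
Number of OCT4 consensus peaks (y axis) in the gene body plus 20 kb on either side against the length of that window (x axis, kb, log scale), for X-linked protein-coding genes (grey), 10 partners and relatives of BCOR (purple) and Bcor (star). Bcor has 21 peaks, Kdm2b 16 and Bcorl1 0.

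Of the X-linked loci with at least 6 OCT4 peaks with a ratio, counted once where they shared most peaks, 16 could be compared, Bcor included. The changes at Bcor spanned 0.482 from lowest to highest, the second widest of the 16, whose spans ran from 0.152 to 0.503 with a median of 0.252. A span grows with the number of peaks, and Bcor and Dmd had the most, 13 each. At Dmd, 13 of 13 peaks were lower on average at day 6, with changes from -0.384 to -0.0821 and a median of -0.234.

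The 3 loci most like Bcor, by distance in the lowest, median and highest change, were Tsix, Txlng and Tbc1d25. The Tsix window, which takes in Xist itself, had 9 peaks with changes from -0.406 to 0.0969 and a median of -0.205 (distance 0.0916). Txlng had 6 peaks from -0.284 to -0.036 with a median of -0.0722 (distance 0.171). Tbc1d25 had 6 peaks from -0.224 to 0.0308 with a median of -0.0715 (distance 0.182).

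**Figure D5:**
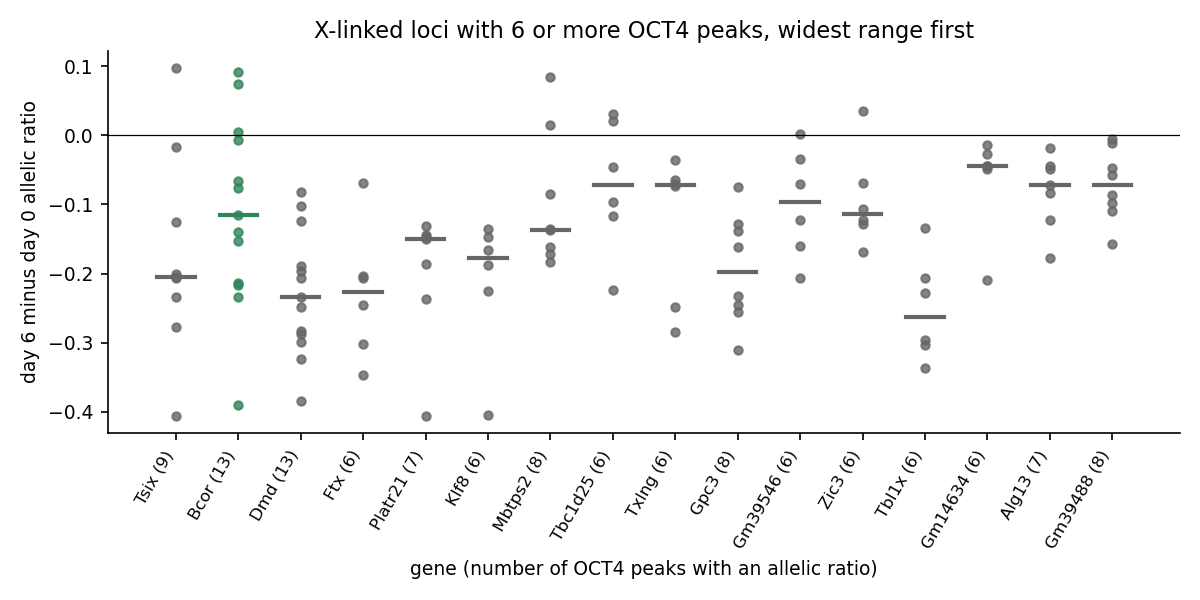
Change of the allelic ratio (day 6 minus day 0, y axis) of every OCT4 peak with a ratio at the 16 X-linked loci with 6 or more of them (x axis, number of peaks in brackets), ordered from the widest range to the narrowest. Points are peaks and lines are medians, and Bcor (green) has a median of -0.115 and a range of 0.482.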

How the data were processed

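The deposited allelic tables hold fractions, Xi / (Xi + Xa) of allele-assigned fragments per peak and library, which the authors computed. Per the study's methods, chromatin was fixed with DSG and formaldehyde, reads were aligned with Bowtie2 (2.3.5.1, also named in the submitters' processing notes) to mm10 masked at strain SNPs, duplicates were removed with Picard, alleles were split with SNPsplit, and MACS2 peaks found in at least 2 libraries, less input peaks, were counted with featureCounts. By the same methods, peaks with few allele-assigned fragments or a skewed day 0 ratio were dropped. The mean day 0 ratios of the YY1 peaks nonetheless ran from 0.145 to 0.828, beyond the limits stated there. The study also reports other totals of filtered peaks than the 1006 for OCT4 and 211 for YY1 used here. Reads outside SNPs carry no allele, so each fraction rests on an unknown depth. No source used here states which consensus list underlies the YY1 ratios. For YY1 at day 0 the labels give the antibody as n/a and the titles name the factor.

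Each factor was fitted alone with limma (3.58.1, R 4.3.3) on all its peaks (1006 for OCT4, 211 for YY1), ratio against day, two-sided, Benjamini-Hochberg adjusted over all of them, and checked on simulated data. Standard errors are limma's moderated ones. Alternatives were a replicate block, the logit, an adjusted p of 0.01, eBayes with trend and robust (statmod 1.5.0), peaks with a day 0 ratio between 0.3 and 0.7, other windows and leaving out each library. Named with every library value were the 3 largest falls, the 3 changes furthest upward, members within 500 bp of a RefSeq start, members with an octamer and every YY1 member; the others were added after their values were seen. Annotation and sequence came from RefSeq on GRCm38.p6. The members, lists and tests were chosen with earlier results of these data known. Mapped sample columns left unused numbered 0.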

Additional observations from a re-analysis of the deposited data

How the results depend on the processing

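Of 46 recomputed values, 34 moved by less than the replicate spread or stayed within 1.5 times the count. Some medians and spans could not move. The day 0 filter kept all 13 OCT4 members and both YY1 members, and the other windows held the same 2 YY1 peaks. For the OCT4 span of 0.482 the replicate spread was 0.254, a wide tolerance. At an adjusted p of 0.01, 0 OCT4 members were called lower, as were 0 of all 1006 peaks. Leaving out 1 library gave from 0 to 3 called OCT4 members, 0 without either day 0 library, where the lone day 0 library is assumed to vary like day 6. YY1 calls were 0 of 2 under every alternative run, but this says little where few peaks were called at all: 0 of 211 without YY1 day 0 replicate 2, 17 without day 0 replicate 1 and 16 at an adjusted p of 0.01. As the share of the day 0 ratio kept minus 1, another scale by construction, the median OCT4 change was -0.235, its span 0.836 and the median YY1 change 0.0373. The median YY1 change was 0.012, and leaving out 1 library gave from -0.0021 to 0.0262, with the negative value without YY1 day 6 replicate 2, so it has no settled sign. The median OCT4 change ran from -0.121 to -0.0808 and its span from 0.399 to 0.628 on leaving out 1 library. The median OCT4 change was -0.0953 over the gene body (12 peaks) and -0.0763 with 50 kb on either side (15 peaks). With 1 mismatch allowed, 12 of 13 members held an octamer (70.8% of all OCT4 peaks), and within 150 bases of the peak centre 2 did (14.7%). Consensus peaks in the window numbered 19 in the gene body and 25 with 50 kb on either side.

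The fit with a replicate block called 2 OCT4 members (274 of 1006 peaks) and 0 YY1 members (97 of 211 peaks). Same-numbered libraries did not deviate together (correlation over peaks -0.0217 for OCT4 and 0.0315 for YY1), so the numbers were not taken to pair them. With 2 libraries per day and no depth per peak, small changes could not be resolved.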
